A study of Mus musculus with 12 samples.

Results

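The immediate early response genes described here were 10 genes of the 18221 measured in mouse spleen: Fos, Fosb, Jun, Junb, Egr1, Egr2, Ier2, Dusp1, Atf3 and Nr4a1. They were taken by gene symbol. All 10 were found, and 9 passed the filter on low values. RNA from the spleens of 12 male ICR mice, an outbred strain, was sequenced, with 3 mice in each of 4 groups. Dosing of the mice began at 3 weeks of age, was by mouth, daily, for 2 weeks, and was followed by 3 weeks of regular care until the spleens were taken at 8 weeks. Con-sa mice received saline, and B-sa mice received a single injection of busulfan, an alkylating drug that depletes blood-forming and germ cells, at 40 mg/kg and then saline. B+Con-FMT and B+A10-FMT mice received the same injection and then the small intestine contents of donor mice (fecal microbiota transplantation, FMT). The donors were dosed for 3 weeks with water for Con-FMT or with alginate oligosaccharide at 10 mg/kg for A10-FMT. The contents of 30 donors per treatment were pooled, so the 3 mice of a transplanted group shared 1 pool. No group received microbiota without busulfan.

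Immediate early genes are transcribed within minutes of a stimulus, from transcription factors that are already present in the cell, so that no new protein has to be made first. Kinases of the ERK, JNK and p38 families and the cyclic AMP and calcium pathways act on serum response factor with its ETS partners (Elk1, Elk3, Elk4) and on CREB family factors, which bind in front of these genes. The messenger RNAs are short-lived, and several of the proteins switch their own genes off again. In spleen the same genes respond to antigen receptor and cytokine signals in lymphocytes and myeloid cells. They also rise when living tissue is handled, warmed or dissociated, which is why each spleen is given below.

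Promoter sequences show the DNA elements through which these signals act. RefSeq promoters (GRCm38.p6) were at hand for 8 of the 10 genes, all but Ier2 and Egr1, and the 250 bases before each annotated start were searched on both strands. The pentamer TGACG, the core of the CREB element, was found at any start of 7 of the 8 genes, Jun being the exception. Of 32851 promoters of all genes, each counted singly, 17.8% held it. At every annotated start it was found for 6 of the 8 genes. The full element TGACGTCA, which contains the pentamer on both strands, was found for Dusp1 and in 1.55% of all promoters. The serum response factor element (CArG box) was found for Egr2, at 4 of its 5 annotated starts, and in 1.47% of all promoters. The AP-1 element TGANTCA, to which Fos and Jun proteins bind, was found for none of the 8 genes and in 6.75% of all promoters. A match is a stretch of letters and not a measured binding site, and these elements can also lie farther from the start than was searched. The stretches before the starts of Fos (chr12:85473740-85473889, plus strand), Junb (chr8:84978749-84978898, minus strand), Nr4a1 (chr15:101266696-101266845, plus strand), Dusp1 (chr17:26508520-26508622, minus strand) and Egr2 (chr10:67537789-67537818, plus strand) are shown because they hold these elements. None overlapped an annotated GENCODE exon. Sequences run 5′ to 3′ on the strand of the gene, and capitals mark the matches.
Fos: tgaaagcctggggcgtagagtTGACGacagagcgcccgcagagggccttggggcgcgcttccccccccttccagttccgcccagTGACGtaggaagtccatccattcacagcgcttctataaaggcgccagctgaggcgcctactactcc
Junb: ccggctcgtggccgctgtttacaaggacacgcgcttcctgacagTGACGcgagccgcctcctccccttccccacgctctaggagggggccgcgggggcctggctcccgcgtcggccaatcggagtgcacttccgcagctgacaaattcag
Nr4a1: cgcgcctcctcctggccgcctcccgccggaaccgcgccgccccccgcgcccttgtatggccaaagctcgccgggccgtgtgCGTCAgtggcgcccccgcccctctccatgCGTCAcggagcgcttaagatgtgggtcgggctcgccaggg
Dusp1: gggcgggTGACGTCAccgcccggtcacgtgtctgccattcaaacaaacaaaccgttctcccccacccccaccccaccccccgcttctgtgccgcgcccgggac
Egr2: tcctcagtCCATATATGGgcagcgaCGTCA
Dusp1 carried the full element near the left end of its stretch. Fos, Junb and Nr4a1 carried the pentamer only, on the plus or the minus strand, and the Egr2 site held the CArG box and, in reverse, the pentamer.

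Levels are reads per kilobase of transcript, scaled to the reads of the library (RPKM), summed over the transcripts of a gene, and they can be compared between genes because they are per length. Junb was the most abundant of the 10 genes with a mean of 35.77 RPKM over 12 spleens (rank 2494 of 18221 genes), followed by Ier2 with 29.29, Dusp1 with 17.93, Nr4a1 with 12.48, Egr1 with 10.11 and Jun with 6.392. Egr2 (2.487), Fos (2.172), Atf3 (1.662) and Fosb (0.5442) were low. Within a gene the highest spleen exceeded the lowest by 1.37 times (Nr4a1) to 2.10 times (Egr2). No spleen stood out with a several-fold rise of any of the 10 genes. In bulk tissue, fewer cells of a type and less RNA per cell cannot be told apart.

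**Figure D1:**
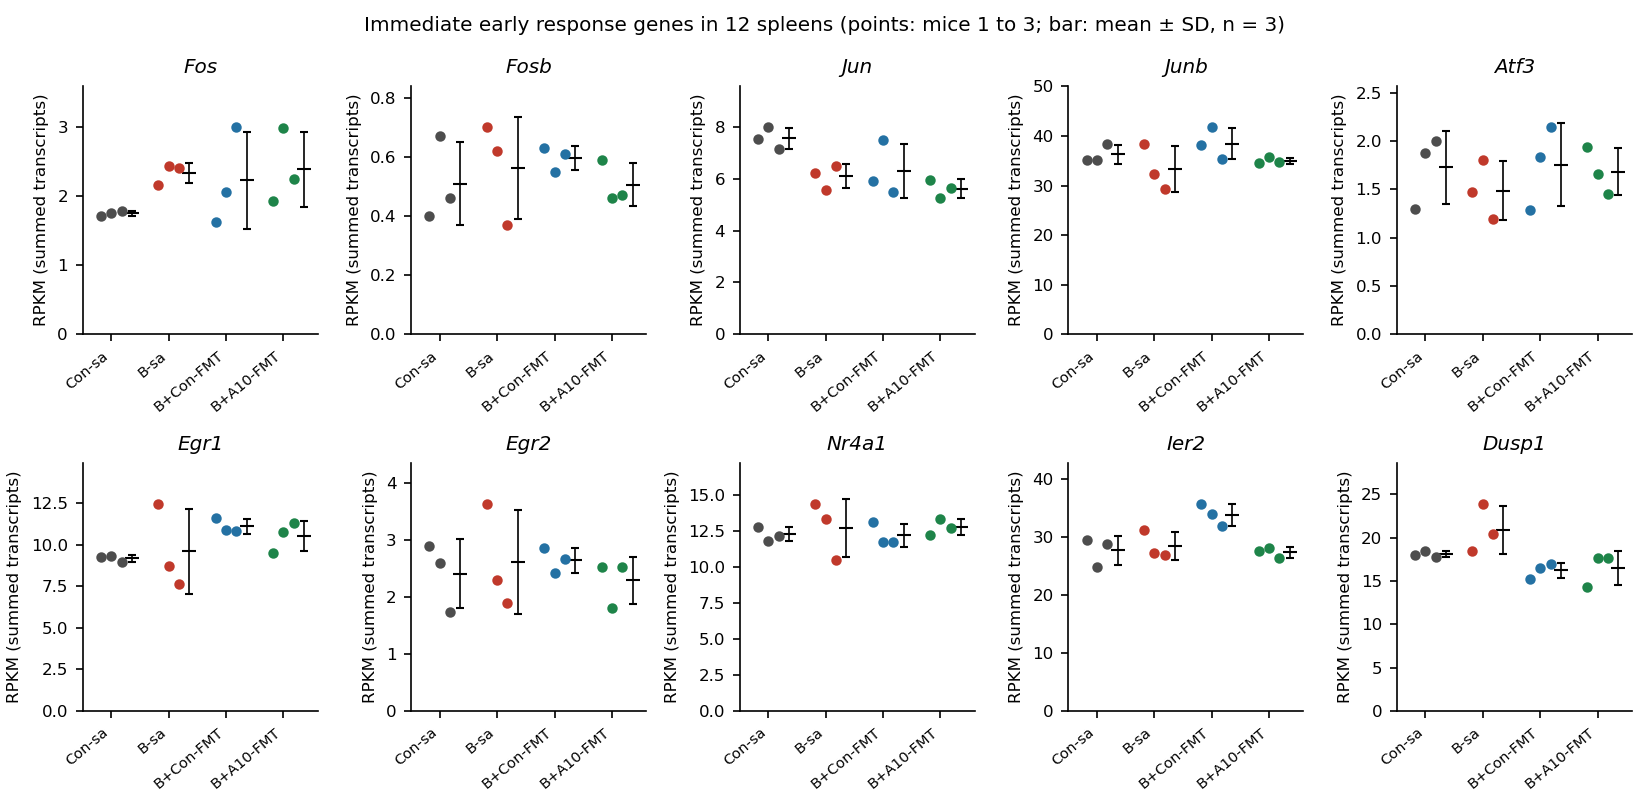
RPKM of the 10 genes (vertical axes, each from 0) in the 3 spleens of each group (points) with the mean and SD (bars, n = 3). For every gene the 12 points stay within 2.10 times of each other, and Ier2 is highest in all 3 B+Con-FMT spleens.

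Group differences are given on the log2(RPKM + 1) scale with their standard error (SE) from 1 limma fit over all 12 spleens and 12671 genes, and a gene was called at a Benjamini-Hochberg adjusted p under 0.05 over those genes. The 6 comparisons share groups and are not independent of each other. Ier2 was called in 2 of the 6 comparisons and the other 8 tested genes in none. Of the 54 differences (9 genes in 6 comparisons), the lowest was -0.37 and the highest 0.29 on the log2 scale. The 95% confidence intervals had a median half-width of 0.21, and all 54 lay within 1 log2 unit of 0, while 46 lay within 0.5. A 2-fold change of RPKM + 1 in any of the 9 genes was therefore outside the interval in every comparison.

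B-sa against Con-sa asks what busulfan alone left in the spleen. None of the 9 genes was called by limma, where 14.5% of all genes tested were called (4.73% higher and 9.78% lower). At an unadjusted p under 0.05 there was 1, Jun, against 31.3% of all genes. B+Con-FMT against B-sa asks for an effect of control microbiota after busulfan. It gave 0 called genes of 9 with limma, against 0.844% of all genes (0.623% higher and 0.221% lower), and 3 with an unadjusted p under 0.05 (Junb, Ier2 and Dusp1) against 18.4% of all genes. B+A10-FMT against B-sa, the same question for the microbiota of oligosaccharide-fed donors, gave 0 called with limma against 5.27% (4.0% higher and 1.27% lower). Dusp1 alone had an unadjusted p under 0.05 there, as did 24.5% of all genes.

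The transplanted groups differed in Ier2, called lower in B+A10-FMT than B+Con-FMT, with 10.4% of all genes called (7.58% higher and 2.78% lower). Against Con-sa, B+Con-FMT had 1 gene called higher, again Ier2, with 8.87% of all genes called (2.30% higher and 6.57% lower). B+A10-FMT against Con-sa had 0 called with limma, against 0.410% of all genes (0.118% higher and 0.292% lower), and Jun alone had an unadjusted p under 0.05, as did 13.5% of all genes. A single test for any difference among the 4 groups called Ier2 (adjusted p = 0.0375) and no other of the 9 genes, against 17.1% of all genes. Jun and Dusp1 came next (adjusted p = 0.0638 and 0.0555). With 9 genes, 1 call is close to the share of all genes, and nothing particular to the 10 genes can be read from it. Higher and lower calls over all genes depend on the scaling. Of the calls in B-sa against Con-sa, 32.6% were higher with the deposited RPKM and 56.8% with median-of-ratios scaling, and B+Con-FMT against Con-sa had 26.0% and 55.8%. In B+A10-FMT the share fell from 75.9% to 46.6% against B-sa and from 73.2% to 44.3% against B+Con-FMT. With equal totals outside the globin genes it was 37.2% in place of 73.8% in B+Con-FMT against B-sa, 89.8% in B+A10-FMT against B+Con-FMT and 10.8% in B+Con-FMT against Con-sa. Both Ier2 calls and their direction stood under both scalings.

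**Figure D2:**
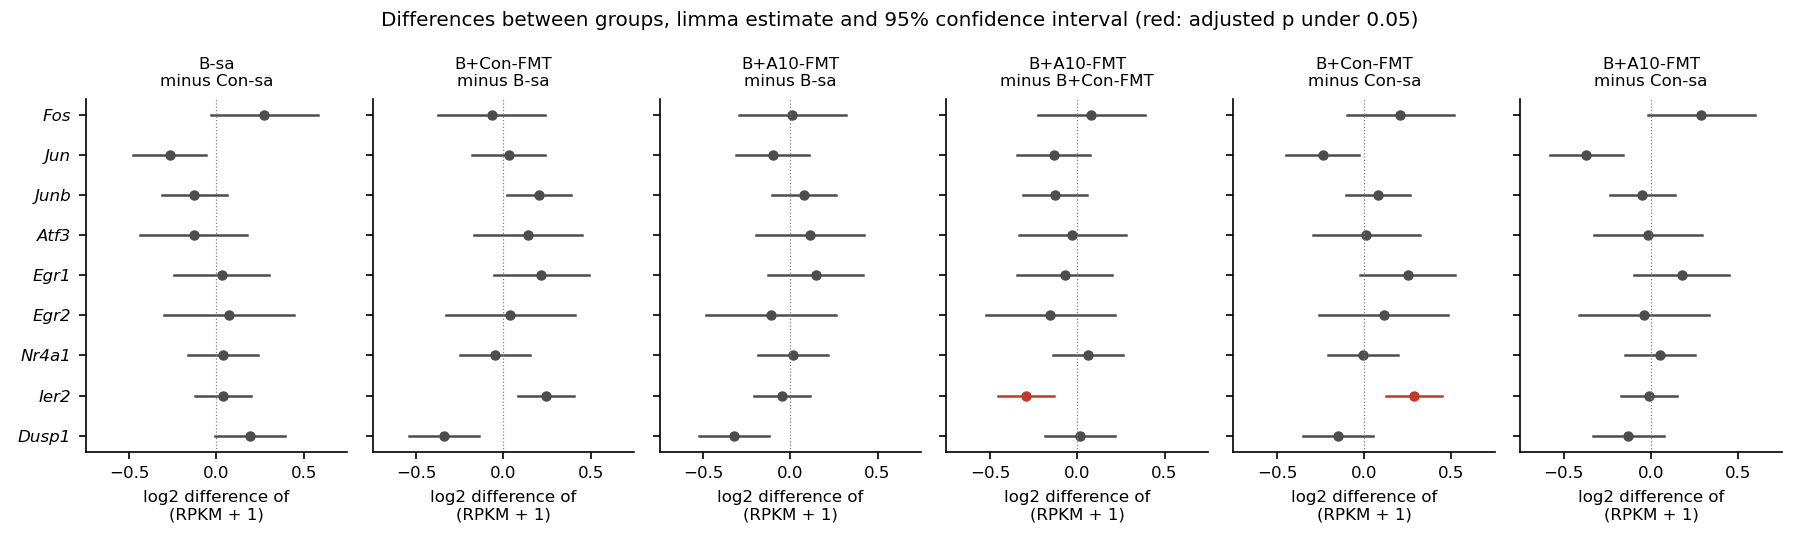
Log2 difference of RPKM + 1 (horizontal axis) with its 95% confidence interval for the 9 tested genes in each of 6 comparisons, with calls in red. The 2 called differences are both of Ier2, -0.30 in B+A10-FMT minus B+Con-FMT and 0.28 in B+Con-FMT minus Con-sa, and every interval lies inside 1 log2 unit of 0.

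Ier2 encodes a small nuclear protein of the immediate early class. It was at 29.40, 24.81 and 28.72 RPKM in the Con-sa spleens, at 31.17, 27.10 and 26.88 in B-sa, at 35.64, 33.93 and 31.85 for B+Con-FMT and at 27.61, 28.10 and 26.30 in B+A10-FMT. All 3 B+Con-FMT spleens lay above all 9 others, and the remaining groups overlapped. The group means were 33.81 ± 1.90 (SD, n = 3) for B+Con-FMT and 27.34 ± 0.931 for B+A10-FMT. The difference was -0.30 on the log2 scale (SE 0.075, limma adjusted p = 0.0287). Against the Con-sa mean of 27.64 ± 2.48, B+Con-FMT was higher by 0.28 (SE 0.075, limma adjusted p = 0.0369). Against the B-sa mean of 28.38 ± 2.42 the difference was 0.25 (SE 0.075), and the limma adjusted p of 0.121 missed the threshold although the groups did not overlap.

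Both Ier2 calls lay near the threshold. Across the other settings tried, the adjusted p of limma ran from 0.016 to 0.11 for B+A10-FMT against B+Con-FMT and from 0.018 to 0.12 for B+Con-FMT against Con-sa, with the direction kept in each. Without B+Con-FMT 1 or 2, or any 1 of the B+A10-FMT spleens, the first call was lost (differences of -0.26, -0.29, -0.30, -0.32 and -0.27 for B+Con-FMT 1 and 2 and B+A10-FMT 1, 2 and 3). The second was lost without any 1 of the Con-sa spleens (0.33, 0.21 and 0.31 for Con-sa 1, 2 and 3) or without B+Con-FMT 1 or 2 (0.25 and 0.28).

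Other RNAs moved with Ier2 in the B+Con-FMT spleens. Heat shock genes, which encode protein-folding chaperones and are raised by heat and by misfolded protein, were called higher in B+Con-FMT for 6 of 11 listed genes against B-sa (0.623% of all genes) and for 8 of 11 against Con-sa (2.30%). In B+A10-FMT all 11 were below B+Con-FMT and 10 were called lower (2.78% of all genes). Hspa8, the constitutive HSP70 chaperone, averaged 1600 ± 98.4 RPKM in B+Con-FMT, against 989 ± 76.5 in Con-sa, 1010 ± 58.5 in B-sa and 964 ± 159 in B+A10-FMT. Hsph1, a co-chaperone of the same family, was at 104 ± 15.3 for B+Con-FMT and at 38.6 ± 3.39, 35.7 ± 3.26 and 36.5 ± 12.2 in the other groups in that order. The inducible Hspa1b, which shares reads with its near-identical neighbour Hspa1a and is less certain for that, was at 13.11, 19.72 and 8.13 RPKM in B+Con-FMT and between 1.42 and 4.80 in the other 9 spleens. The B+Con-FMT spleens were thus apart from the rest in these genes too.

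RNA of neighbouring tissue differed as well. The summed RPKM of 15 pancreatic acinar markers was 9830 to 15700 for B+Con-FMT, 1580 to 8560 for Con-sa, 559 to 4020 for B-sa and 534 to 11500 for B+A10-FMT, with all 15 markers detected. Of the other 9 spleens B+A10-FMT 3 alone reached into the B+Con-FMT range, and its Ier2 level was 26.30 RPKM. The 5 T cell markers found summed to 293, 230 and 237 RPKM in B+Con-FMT and to 181 to 235 in the other 9 spleens. B+Con-FMT 1 was the highest of the 12 in both the T cell sum and Ier2 (35.64 RPKM), and B-sa 1 the highest of the other 9 in both (31.17 RPKM of Ier2). The parts of the heat shock genes, the acinar RNA and the T cells in the Ier2 difference were not tested.

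**Figure D3:**
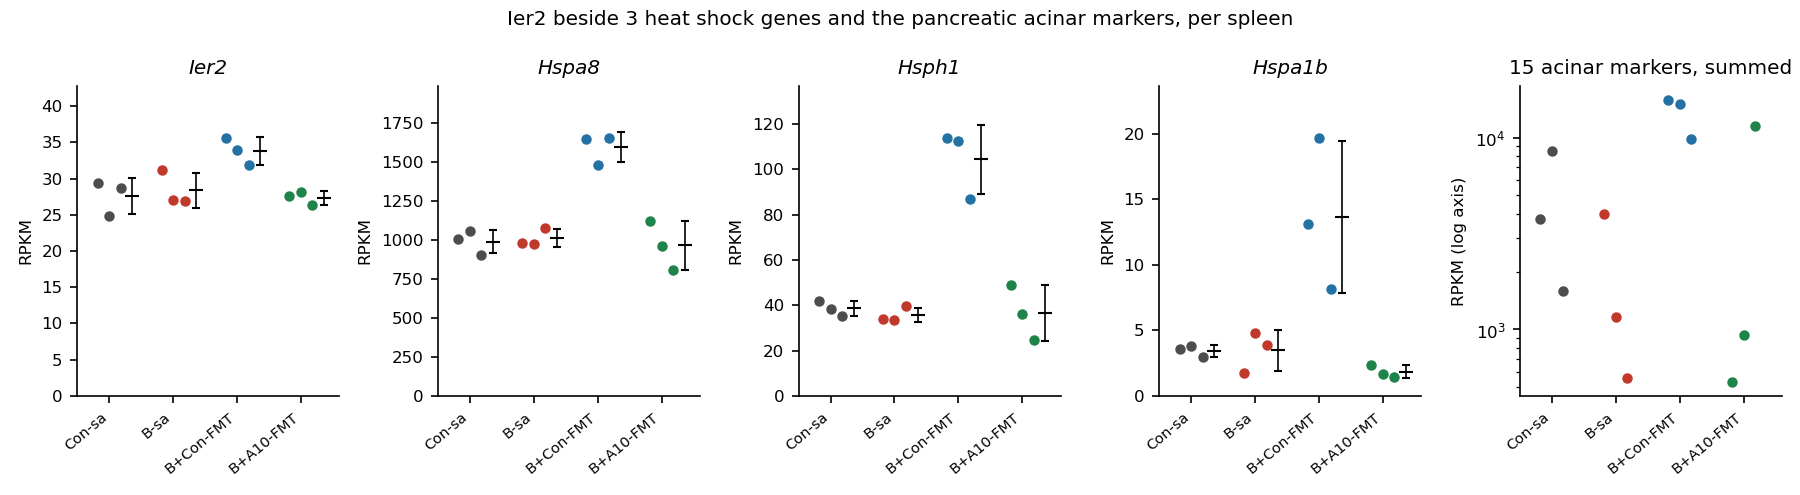
RPKM of Ier2, Hspa8, Hsph1 and Hspa1b (axes from 0, with mean and SD, n = 3) and of 15 summed pancreatic acinar markers (log axis, points only) in each spleen. The B+Con-FMT spleens are the 3 highest in the 4 gene panels, and B+A10-FMT 3 has an acinar sum of 11500 within their range.

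Fos and Fosb encode 2 of the Fos subunits that pair with Jun proteins to form AP-1. Fos was at 1.71, 1.76 and 1.78 RPKM in Con-sa, at 2.16, 2.43 and 2.40 in B-sa, at 1.62, 2.06 and 2.99 for B+Con-FMT and at 1.92, 2.98 and 2.25 in B+A10-FMT. The 3 Con-sa spleens lay close together, below all B-sa and B+A10-FMT spleens, and the busulfan groups overlapped with each other. Neither difference from Con-sa passed, at 0.28 in B-sa (SE 0.142, limma adjusted p = 0.205) and 0.29 in B+A10-FMT (SE 0.142, adjusted p = 0.397). A Fos level of this size rests on few reads, an estimated median of 62.6 per spleen.

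Fosb ranged from 0.37 to 0.70 RPKM, both in B-sa (mice 3 and 1). It lay below the minimum of 1 RPKM in all 12 spleens and was not tested in the main fit. Group means were 0.510 ± 0.142 for Con-sa, 0.563 ± 0.172 for B-sa, 0.597 ± 0.0416 for B+Con-FMT and 0.507 ± 0.0723 for B+A10-FMT. When all genes were tested, its log2 differences in the 6 comparisons lay between -0.08 and 0.08, and the lowest limma adjusted p was 0.622.

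Jun and Junb encode Jun subunits of AP-1, Jun being the stronger activator of the pair and a substrate of JNK. Jun was at 7.53, 7.98 and 7.15 RPKM in Con-sa, at 6.22, 5.58 and 6.51 in B-sa, at 5.91, 7.49 and 5.49 for B+Con-FMT and at 5.97, 5.24 and 5.63 in B+A10-FMT. Of the 9 busulfan-treated spleens, 8 lay below every Con-sa spleen, and B+Con-FMT 2 lay among them. Its differences from Con-sa were -0.27 in B-sa (SE 0.097, limma adjusted p = 0.0785), -0.24 for B+Con-FMT (SE 0.097, adjusted p = 0.133) and -0.37 for B+A10-FMT (SE 0.097, adjusted p = 0.136). The B+A10-FMT difference had the lowest unadjusted p of these, 0.00205, in the comparison where the fewest genes were called. Without B+Con-FMT 2 the first 2 passed (adjusted p = 0.041 and 0.042, at -0.27 and -0.35). The 3 comparisons share the Con-sa spleens. Summed RPKM of 4 kidney markers, of which 2 had a mean of at least 1, also set Con-sa apart. The sum was 75.3 to 117 there and 0.710 to 61.9 over the other 9 spleens. The part of these markers in the Jun values was not tested.

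Junb was at 35.24, 35.17 and 38.49 RPKM in Con-sa, at 38.37, 32.34 and 29.32 in B-sa, at 38.10, 41.74 and 35.45 for B+Con-FMT and at 34.47, 35.70 and 34.82 in B+A10-FMT. The groups overlapped in all 6 comparisons. Its largest difference, 0.20 in B+Con-FMT against B-sa (SE 0.085), had a limma adjusted p of 0.229, and without B-sa 1 it was 0.31 with an adjusted p of 0.040.

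Atf3, a bZIP factor of the ATF/CREB family that represses many stress and cytokine genes, was at 1.30, 1.88 and 2.0 RPKM in Con-sa, at 1.47, 1.80 and 1.19 in B-sa, at 1.29, 1.83 and 2.14 for B+Con-FMT and at 1.94, 1.66 and 1.45 in B+A10-FMT. Every group spanned much of the range of the others, and the groups overlapped in all comparisons. Differences lay between -0.13 and 0.14, with SE 0.142 and limma adjusted p of at least 0.564.

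Egr1 and Egr2 encode zinc finger factors that bind GC-rich elements, and Nr4a1 (Nur77) is an orphan nuclear receptor induced by T and B cell receptor signals. Egr1 was at 9.29, 9.33 and 8.95 RPKM in Con-sa, at 12.46, 8.72 and 7.62 in B-sa, at 11.63, 10.88 and 10.82 for B+Con-FMT and at 9.53, 10.75 and 11.31 in B+A10-FMT. All transplanted spleens lay above all Con-sa spleens, and B-sa held both the highest and the lowest of the 12. The differences from Con-sa were 0.25 for B+Con-FMT (SE 0.126, limma adjusted p = 0.223) and 0.18 for B+A10-FMT (SE 0.126, adjusted p = 0.564), and neither passed. Without B-sa 1 the first had an adjusted p of 0.049, and with only the 2 groups in the fit 0.043.

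Egr2 was at 2.90, 2.59 and 1.73 RPKM in Con-sa, at 3.63, 2.30 and 1.90 in B-sa, at 2.85, 2.41 and 2.67 for B+Con-FMT and at 2.53, 1.81 and 2.53 in B+A10-FMT. It spread more between mice than the other 8 tested genes, and the groups overlapped throughout. Its differences ran from -0.15 to 0.11 (SE 0.172), with limma adjusted p of at least 0.583. The reference transcript NM_010118.3 carried 77.5% of the Egr2 signal. A second transcript, NM_001347458.1, was above 0 in 4 spleens and reached 1.59 RPKM in B-sa 1, the highest spleen for the gene.

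Nr4a1 was at 12.79, 11.83 and 12.15 RPKM in Con-sa, at 14.38, 13.31 and 10.46 in B-sa, at 13.12, 11.74 and 11.70 for B+Con-FMT and at 12.21, 13.31 and 12.73 in B+A10-FMT. Both the highest and the lowest spleen were again in B-sa, and the groups overlapped in every comparison. Differences lay between -0.05 and 0.06 (SE 0.093), with limma adjusted p of at least 0.694. It had the narrowest range of the 10 genes.

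Dusp1 encodes the phosphatase MKP-1, which switches off p38 and JNK and so ends the signal that induced it, and glucocorticoids induce it too. It was at 17.97, 18.51 and 17.79 RPKM in Con-sa, at 18.41, 23.90 and 20.42 in B-sa, at 15.28, 16.50 and 16.91 for B+Con-FMT and at 14.27, 17.61 and 17.65 in B+A10-FMT. All 6 transplanted spleens lay below all B-sa and all Con-sa spleens. The difference from B-sa was -0.34 for B+Con-FMT (SE 0.093, limma adjusted p = 0.0976) and -0.32 for B+A10-FMT (SE 0.093, adjusted p = 0.0606), and both missed the threshold. Under median-of-ratios scaling B+A10-FMT against B-sa passed (adjusted p = 0.045, difference -0.37). Without B-sa 1, the lowest B-sa spleen for Dusp1, both passed, at -0.42 (adjusted p = 0.033) and -0.41 (0.029). These 2 comparisons share the B-sa spleens. Against Con-sa the differences were -0.15 (adjusted p = 0.319) and -0.13 (0.561).

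Summed markers of neutrophils, which express Dusp1 and Fos, were 3540 to 5800 RPKM for B-sa, 1990 to 2070 for Con-sa, 2310 to 3320 for B+Con-FMT and 1970 to 4920 for B+A10-FMT for 8 markers, all detected. The spleen with the highest sum, B-sa 2, was also the highest for Dusp1 (23.90 RPKM). The next, B+A10-FMT 2 (4920), had a Dusp1 level of 17.61 RPKM, below every Con-sa spleen. The part of neutrophil content in these values was not tested. B cell markers (1390 to 2000), erythroid markers (106000 to 155000) and the spleen stroma factors Tlx1, Nkx2-5 and Tcf21 (36.8 to 61.0) were present in all 12 spleens.

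Spread between mice of a group was the second measurement, because a delay or rough handling of 1 spleen would show as that spleen being high in many of these genes. The residual SD on the log2 scale was highest for Egr2 (0.244, the 93.7th percentile of all genes tested), Fos (0.194, 89.1th), Atf3 (0.191, 88.8th) and Egr1 (0.179, 86.9th), and lowest for Ier2 (0.0979, 49.1th). The median over the 9 genes was 0.129, beside 0.0991 over all genes tested. With all 12 spleens in the fit, all 9 lay above the limma trend for genes of their level, by 1.15 times (Jun) to 1.84 times (Egr1 and Egr2), where 51.2% of all genes did. The Egr1 spread rests largely on B-sa 1, at 12.46 RPKM beside 8.72 and 7.62 in B-sa 2 and 3. Its SD was 2.54 RPKM in B-sa and 0.209 to 0.910 in the other groups. Spread without B-sa 1 was not computed. Counting of reads alone gives an estimated coefficient of variation (CV) of 12.6% for Fos and 14.3% for Atf3, beside CVs between mice of 19.7% and 20.7%. For Egr1 the pair was 4.70% and 14.1%, and for Junb 3.34% and 8.50%.

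**Figure D4:**
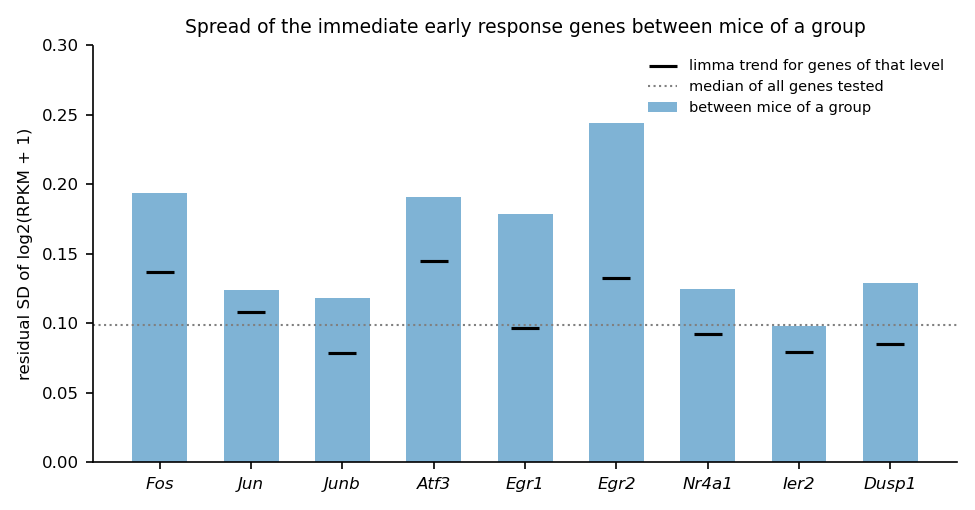
Residual SD of log2(RPKM + 1) between mice of a group (bars, from 0) for the 9 tested genes, with the limma trend for genes of the same level (dashes) and the median of all genes tested (dotted line, 0.0991). Every bar rises above its dash, and Egr2 is the highest at 0.244.

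The B-sa group held both extremes. B-sa 1 was the highest of the 12 for 4 of the 10 genes (Fosb, Egr1, Egr2 and Nr4a1) and above the median of the 12 for 9, and B-sa 3 was the lowest for 5 (Fosb, Junb, Egr1, Atf3 and Nr4a1). Of these, Fosb lay below 1 RPKM in all spleens. The reference transcript of Egr2 was not highest in B-sa 1, at 1.61 RPKM there and 1.43 to 2.78 over the 12. The mean log2(RPKM + 1) of the 10 genes was 3.107 in B-sa 1 and 2.857 in B-sa 3, the extremes of the 12. Group means of that score were 2.972 ± 0.020 for Con-sa, 2.989 ± 0.126 for B-sa, 3.035 ± 0.029 for B+Con-FMT and 2.961 ± 0.017 for B+A10-FMT (SD, n = 3). The SD of the score was higher in B-sa than in the other 3 groups. Without B-sa 1 the calls rose to 4 in B+Con-FMT against B-sa (Junb, Egr1, Ier2 and Dusp1), 2 in B+A10-FMT against B-sa (Egr1 and Dusp1), 2 in B+Con-FMT against Con-sa (Egr1 and Ier2) and 1 in B-sa against Con-sa (Junb). Calls over all 12671 genes tested rose in the same fits, from 107 to 468, from 668 to 833, from 1124 to 1308 and from 1838 to 2100 in that order. The rise was thus not limited to the 10 genes, but as a share of the genes tested it was larger among the 9. These counts describe and do not test, because B-sa 1 stood out in these same genes. No label sets this spleen apart, and the values above are given with it.

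The 10 genes did not rise and fall as a block. After subtracting group means, 21 of the 45 gene pairs had a positive Pearson r over the 12 spleens, with a median of -0.05. The pair most alike was Egr1 and Nr4a1 (r = 0.81, Spearman rho = 0.71, and r = 0.74 without B-sa 1). Junb and Egr1 (r = 0.74) and Egr1 and Egr2 (r = 0.70) fell to 0.22 and 0.26 without that spleen. Whether the 12 libraries were prepared together is not stated in the study's methods, and the points of 1 group are only 3, so these are descriptions.

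Among the other genes tested with a mean RPKM of at least 1, those most like the mean of the 10 after subtraction of group means were Cstdc4 (r = 0.99, rho = 0.94, 12 spleens), Psme1 (0.96), Xrcc1 (0.95), Hs3st3a1 (0.95), Lyz1 (0.95), Dhcr7 (0.94), Csf2rb2 (0.94), Psmd8 (0.94), Tulp3 (0.94), Mvb12a (0.93), Stfa2l1 (0.93) and Eif2b3 (0.93). No classical immediate early gene was among these 12. Cstdc4 and Stfa2l1, stefin family protease inhibitors, were at 63.2 and 66.9 RPKM in B-sa 1, the highest of the 12 spleens for both, beside means of 9.08 and 12.5. With the 2 spleens farthest from the median left out, r fell to 0.09 for Stfa2l1, 0.43 for Tulp3, 0.51 for Hs3st3a1 and 0.52 for Xrcc1, and was 0.64 to 0.88 for the other 8. Without subtraction of group means, r of the 12 genes ran from 0.25 to 0.94, with 0.46 for Cstdc4. The r values of the 12 genes are the highest of many, and no r was tested.

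Other rapidly induced genes gave a wider view of the same program. Of 52 further such genes, 49 were tested. In B-sa against Con-sa limma called 2 higher and 3 lower, where 4.73% and 9.78% of all genes were called. In B+A10-FMT against B-sa 1 was called higher and 1 lower (4.0% and 1.27% of all genes), and against B+Con-FMT 2 higher and 1 lower (7.58% and 2.78%). In B+Con-FMT against Con-sa 2 were called lower and none higher (6.57% and 2.30%). No limma call was made in B+Con-FMT against B-sa, where 24.5% of the 49 and 18.4% of all genes had an unadjusted p under 0.05, or in B+A10-FMT against Con-sa, where 30.6% of the 49 (15 genes) and 13.5% of all genes did. In the other 4 comparisons 14.3% to 28.6% of the 49 had such a p, against 24.5% to 31.3% of all genes. The balance of these calls moved with the scaling. With median-of-ratios scaling 3 were called higher and 1 lower in B-sa against Con-sa, where 966 and 736 of all 12671 genes were. B+A10-FMT against B+Con-FMT then had 2 calls up and 3 down (552 and 695 of 12671), and B+Con-FMT against Con-sa had 1 up and none down (631 and 499). With totals equal outside the globin genes these counts were 1 and 2 (577 and 1105 of 12671), 4 and 0 (2099 and 239), and 0 and 2 (199 and 1638). Against Con-sa each scaling also called 1 gene, Rgs1, higher in B+A10-FMT (23 and 24 of all genes in the same order of scalings).

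The 49 leaned to 1 side in 2 comparisons with the deposited RPKM. In B+Con-FMT against B-sa 33 had a higher and 16 a lower mean (48.5% of all genes were higher), and in B+A10-FMT against B+Con-FMT 17 were higher and 32 lower (61.2% of all genes were higher). With median-of-ratios scaling the splits were 33 to 16 and 14 to 35, where 49.2% and 50.0% of all genes were higher, and B+Con-FMT against Con-sa had 33 to 16 as well (51.4% of all genes), against 28 to 21 with the deposited RPKM. With equal totals outside the globin genes they were 26 to 23 and 24 to 25, where 34.6% and 72.0% of all genes were higher, so the 49 still stood on the same side of all genes. The median log2 difference of the 49 lay between -0.07 and 0.06 over the 6 comparisons, and that of all genes tested between -0.04 and 0.05. With equal totals the median of the 49 changed sign in B+Con-FMT against Con-sa (0.03 and -0.02), and with median-of-ratios scaling in B+A10-FMT against B-sa (0.01 and -0.03).

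The most abundant of these were Btg1 (118 RPKM), an antiproliferative gene of resting lymphocytes, Ppp1r15a (115), the stress-induced subunit that recruits a phosphatase to eIF2alpha, and Zfp36l1 (108), which binds AU-rich messenger RNAs. Klf2, a factor of quiescent T cells and endothelium, fell from 104 ± 9.64 RPKM in Con-sa to 75.2 ± 7.29 in B-sa (log2 -0.47, SE 0.098, limma adjusted p = 0.0119). Zfp36, the tristetraprolin gene, fell with it (-0.28, adjusted p = 0.0383), as did Arl5b (-0.23, 0.0413). With median-of-ratios scaling the Klf2 call stood (0.0179), while Zfp36 and Arl5b were not called (limma adjusted p = 0.0714 and 0.0866), and with equal totals outside the globin genes Arl5b was not (0.0536). In the same spleens 6 B cell markers summed to 1810 to 2000 RPKM for Con-sa and 1390 to 1660 for B-sa, and 7 endothelial markers to 118 to 122 and 99.5 to 107, and their part was not tested. Ppp1r15a rose in B-sa (0.31, adjusted p = 0.0386), as did the DNA damage gene Gadd45a (0.33, 0.0263). Ppp1r15a was not called with equal totals (0.0537). Rgs2, which curbs G protein signals, was at 27.6 ± 0.937 RPKM in B+A10-FMT, called above B-sa (0.39, adjusted p = 0.00770) and B+Con-FMT (0.29, 0.0161). Klf4 was 3.68 ± 0.228 in B+A10-FMT and 2.49 ± 0.241 in B+Con-FMT (0.42, limma adjusted p = 0.0105), where it was also below Con-sa (-0.29, 0.0459). Arl5b was lower in B+Con-FMT than Con-sa too (-0.23, 0.0490). With median-of-ratios scaling neither Klf4 nor Arl5b was called in B+Con-FMT against Con-sa (adjusted p = 0.0562 and 0.0965). The 6 red pulp macrophage markers summed to 741 to 874 RPKM in B+A10-FMT and to 470 to 652 in the other 9 spleens, and 3 factors of spleen stroma to 57.6 to 61.0 and 36.8 to 52.0. Their part in the differences of Rgs2 and Klf4, and that of the endothelial markers (121 to 122 in B+A10-FMT and 93.9 to 108 in B+Con-FMT), was not tested. Gadd45b was lower in B+A10-FMT than B-sa (-0.33, adjusted p = 0.0495), and Nfkbia, the inhibitor of NF-kappaB, was lower in B+A10-FMT than B+Con-FMT (-0.27, 0.0444). The Nfkbia call was lost with equal totals (0.0535) and kept with median-of-ratios scaling (0.0201).

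**Figure D5:**
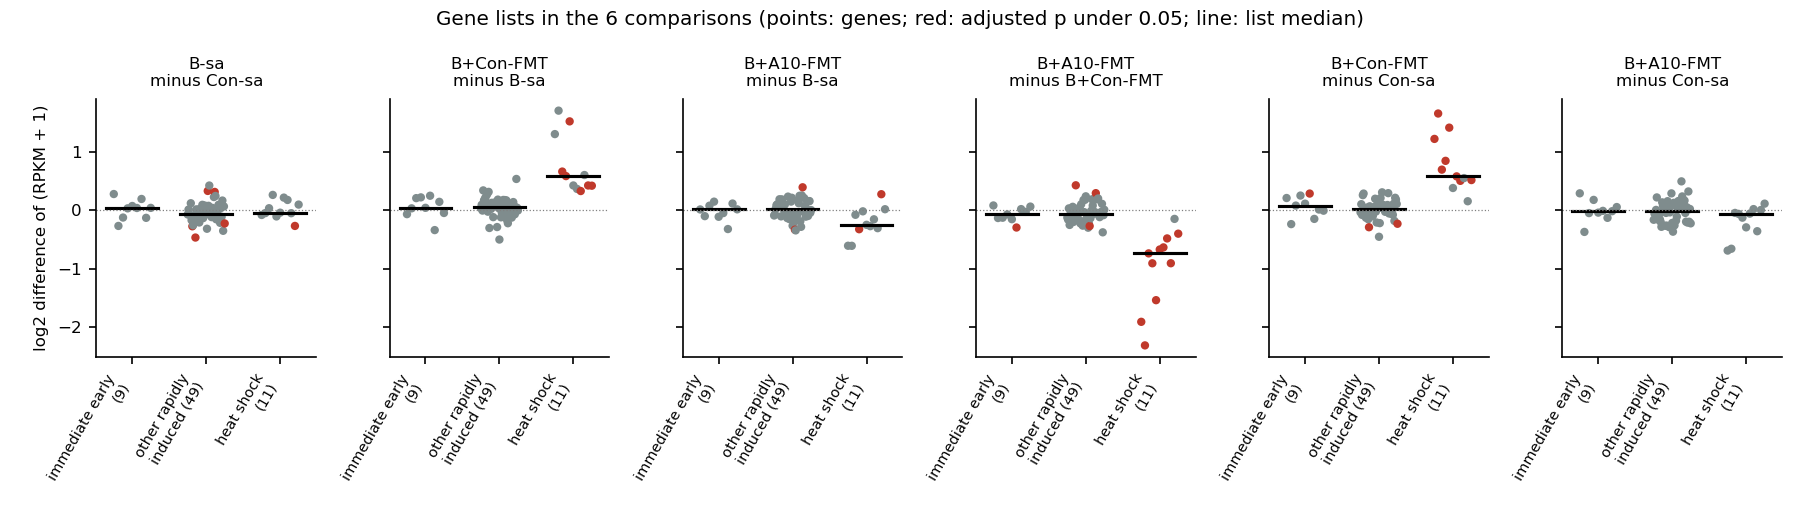
Log2 difference of RPKM + 1 (vertical axis) of the 9 tested immediate early genes, 49 other rapidly induced genes and 11 heat shock genes in the 6 comparisons, with called genes in red and list medians as lines. The medians of the first 2 lists stay between -0.07 and 0.08, while that of the heat shock list is 0.58 in both B+Con-FMT against B-sa and B+Con-FMT against Con-sa.

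Upstream of these genes, 31 kinases and factors of the MAP kinase, serum response factor and CREB pathways were all tested. In B-sa 8 were called lower than Con-sa and none higher, in a comparison where 9.78% of all genes were called lower. Among them were Ep300 (-0.31, SE 0.062, limma adjusted p = 0.00947), a coactivator of CREB, Mrtfa (-0.25, 0.0123), which joins serum response factor, and Elk3 (-0.26, 0.0204), its ETS partner. Elk3 was called in 4 comparisons, at 15 ± 0.35 RPKM for Con-sa, 12.3 ± 0.479 for B-sa, 12.3 ± 1.03 for B+Con-FMT and 15.2 ± 0.465 for B+A10-FMT. The 7 endothelial markers were likewise higher in Con-sa and B+A10-FMT, at 118 to 122, 99.5 to 107, 93.9 to 108 and 121 to 122 RPKM in the same order of groups, and their part in the Elk3 differences was not tested. B+A10-FMT had 3 genes called higher than B-sa (Mapk14, Elk3 and Mrtfa), where 4.0% of all genes were, and 4 higher than B+Con-FMT (Elk3, Mapk8, Mapk9 and Mapk14), where 7.58% were, and none lower. In B+Con-FMT, 4 were called lower than Con-sa (6.57% of all genes) and 1, Hras, higher (2.30%). No call was made in B+Con-FMT against B-sa or in B+A10-FMT against Con-sa, where 6 (19.4%) and 1 (3.23%) of the 31 had an unadjusted p under 0.05, against 18.4% and 13.5% of all genes. With median-of-ratios scaling 4 were called lower and 1, Hras, higher in B-sa than Con-sa, where 736 and 966 of all 12671 genes were. Mrtfa was then lost from the calls of B+A10-FMT against B-sa and Mapk14 from those against B+Con-FMT (limma adjusted p = 0.0764 and 0.147). With equal totals outside the globin genes 7 were called higher in B+A10-FMT than B+Con-FMT, where 2099 of all 12671 genes were. In B+Con-FMT 11 were then called lower than Con-sa and none higher (Hras limma adjusted p = 0.105), where 1638 and 199 of all genes were. Mapk3 (61.8 RPKM) and Mapk14 (52.1), the genes of ERK1 and p38alpha, were among the most abundant. Srf itself was at 21.5 ± 0.885 to 24.3 ± 1.55 RPKM and was not called.

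Dimer partners of the AP-1 and ATF proteins were led by Atf4 (161 RPKM), the factor of the integrated stress response, Jund (38.0) and Mafk (27.6). Atf4 was at 150 ± 11.1 RPKM for Con-sa, 175 ± 5.13 for B-sa, 177 ± 0.991 for B+Con-FMT and 141 ± 7.58 for B+A10-FMT. It was called higher in B-sa and in B+Con-FMT than Con-sa (limma adjusted p = 0.0275 and 0.0260) and lower in B+A10-FMT than either (0.0152 against B-sa and 0.00785 against B+Con-FMT). With equal totals outside the globin genes its call in B+Con-FMT against Con-sa was lost (0.0539). Ddit3, its target that encodes CHOP, was called lower in B+A10-FMT than B+Con-FMT (-0.29, adjusted p = 0.0358). Of the 21 listed, 19 were tested, with 6 called for any difference among the groups, where 17.1% of all genes were. Jund was at 36.0 ± 1.40 to 40.6 ± 5.48 RPKM and was not called (adjusted p = 0.485). Fosl1 was at 0.09 RPKM or less in all spleens.

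Partners and close kin of Egr1 and Nr4a1 included 6 tested genes of 7. Nab2, which encodes a corepressor of Egr proteins and is one of their targets, was at 13.4 ± 1.33 RPKM for B+Con-FMT and 9.08 ± 0.987 for B+A10-FMT (-0.51, limma adjusted p = 0.0181). Rxra, a dimer partner of Nr4a1, was higher in B+A10-FMT than B+Con-FMT (0.32, adjusted p = 0.0184) and B-sa (0.30, 0.0373). Nab1 and Rxrb were called lower in B-sa than Con-sa (-0.22 and -0.23, adjusted p = 0.0452 and 0.0325). With median-of-ratios scaling none of the 6 was called in B+A10-FMT against B-sa or in B-sa against Con-sa, and with equal totals outside the globin genes Nab1 was not called in the latter (0.0568). Rxra moved with the red pulp macrophage and stroma markers given above, and their part was not tested. Egr3 was at 10.2 ± 1.35 to 10.8 ± 0.764 RPKM and Nr4a3 at 1.19 ± 0.136 to 1.78 ± 0.405, and neither was called. Nr4a2 lay below 1 RPKM in all spleens and was not tested.

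Glucocorticoid targets, which include Dusp1 as a known responder and rise with stress of the animal, gave calls for 1 of 9 tested genes, in the test for any difference too (17.1% of all genes). That gene was Cdkn1a, the p21 cell cycle inhibitor and also a p53 target, higher in B-sa (13.2 ± 1.33 RPKM) and in B+Con-FMT (16.9 ± 3.34) than Con-sa (8.01 ± 1.13), with limma adjusted p of 0.0322 and 0.00992. In B+A10-FMT it was at 15.4 ± 3.87 RPKM (0.85 above Con-sa, adjusted p = 0.0729). The metallothionein genes Mt1 (102 RPKM) and Mt2 (82.1) and Tsc22d3 (49.7), the GILZ gene, were the most abundant and were not called. In B-sa against Con-sa 66.7% of the 9 had an unadjusted p under 0.05 (31.3% of all genes). Of these Cdkn1a was higher, and Fkbp5 (-0.20), Tsc22d3 (-0.21), Per1 (-0.22), Nr3c1 (-0.15) and Klf9 (-0.23) were lower. Against Con-sa 44.4% had such a p in B+Con-FMT (27.4% of all genes) and in B+A10-FMT (13.5%). In the other 3 comparisons 0 or 1 of the 9 did. With equal totals outside the globin genes Tsc22d3 and Klf9 were called lower in B+Con-FMT than Con-sa (-0.35 and -0.37, limma adjusted p = 0.0283 and 0.0367), as were 1638 of all 12671 genes. Sgk1, which is among the 49 rapidly induced genes too, was called higher in B+A10-FMT than B-sa (0.24, 0.0388), as were 559 of all genes. Fkbp5 was at 10.1 ± 0.757 to 11.7 ± 0.446 RPKM.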

How the data were processed

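Spleen RNA of 12 mice, 3 per group, was measured, and groups were taken from the sample labels. The deposited values are RPKM per RefSeq transcript, 1 table per mouse. Per the study's methods the authors enriched mRNA with oligo(dT), mapped reads with SOAPaligner and converted read numbers to RPKM on reads of an Illumina instrument, while the submitters' processing notes name HISAT, Bowtie2 and mm10 and the labels a BGISEQ protocol, so the aligner and instrument are not settled. Read counts were not used here. RPKM were summed over 60654 transcripts to 18221 genes by gene identifier. The summed RPKM of a spleen was 677033 to 772157, of which globin took 23.3% to 32.4%. Depth was estimated at 14700000 to 15700000 reads from the steps of low values, of which 61.1% to 70.6% came out whole within 0.1 of a fragment. That share is too low to recover read counts, so no count test was run and estimated reads are approximate.

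The test was limma 3.58.1, run under R 4.3.3 with a trended and robust prior and two-sided, on log2(RPKM + 1) of 12671 genes with at least 1 RPKM in at least 3 spleens, group only, Benjamini-Hochberg over those genes. A fold on that scale understates the change of low genes. On simulated data for B-sa against Con-sa (12671 genes, 200 changed) 75% of changes of 0.5 log2 and 94% of changes of 1 log2 were recovered. Promoters were searched with Python 3.11.15. Named genes of a list were the 3 of highest mean RPKM and up to 3 called per direction and comparison, and a few more (Srf, Jund, Fosl1, Egr3, Nr4a2, Nr4a3, Fkbp5, Hsph1 and Hspa1b) were added once their values were known. Some listed genes that this rule names are not reported here. The members and lists were chosen with earlier results of these data known. Mice were not stated to be littermates or cage mates. Alternatives were the pseudocount, filter, scaling, transcript choice, fit settings and each spleen left out.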

Additional observations from a re-analysis of the deposited data

How the results depend on the processing

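Counts of called genes among the 9 tested moved with the settings. Junb was called only without B-sa 1, and Egr1 only without it or with only the 2 groups compared. With 1 spleen left out, the counts ran from 0 to 1 in B-sa against Con-sa, 0 to 4 in B+Con-FMT against B-sa, 0 to 2 in B+A10-FMT against B-sa, 0 to 1 in B+A10-FMT against B+Con-FMT, 0 to 2 in B+Con-FMT against Con-sa and 0 to 4 for any difference among the 4 groups. Calls over all genes moved too, to 510 to 2100, 19 to 468, 106 to 833, 222 to 1559, 337 to 1308 and 1119 to 2698 for these 6 in the same order, where the full data gave 1838, 107, 668, 1312, 1124 and 2171, and to 1 to 75 from 52 in B+A10-FMT against Con-sa. With no filter on low values, or with eBayes without its trend and robust settings, B+Con-FMT against Con-sa and any difference each gave 0. With the transcript of highest RPKM in place of the sum, B+A10-FMT against B+Con-FMT, B+Con-FMT against Con-sa and any difference each gave 0, and calls over all genes fell to 315, 258 and 508 there and to 547, 23, 111 and 1 in B-sa against Con-sa, B+Con-FMT against B-sa, B+A10-FMT against B-sa and B+A10-FMT against Con-sa. Only the 2 groups compared gave 2 in B+Con-FMT against Con-sa, and at least 1 RPKM in every spleen gave 2 for any difference. Median-of-ratios scaling gave 1 in B+A10-FMT against B-sa and 2 for any difference. Calls over all genes moved by over 1.5 times also when totals without the globin genes were made equal (2338 in B+A10-FMT against B+Con-FMT, 1837 in B+Con-FMT against Con-sa, 180 in B+Con-FMT against B-sa), with only the 2 groups compared (158 in B+A10-FMT and 32 in B+Con-FMT against B-sa, 972 in B-sa against Con-sa), without a filter (71 in B+Con-FMT against B-sa), with at least 1 RPKM in every spleen (29 in B+A10-FMT against Con-sa) and with the replicate block (417 in B+A10-FMT against B-sa).

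The mice share only a number across groups: same-numbered deviations correlated between -0.373 and 0.303. With a replicate block, B+A10-FMT against B-sa gave 1 (Dusp1, adjusted p = 0.043) and any difference 2, and the counts of the other comparisons did not move. Of the 12 genes most like the mean of the 10, 7 were among the 12 with a pseudocount of 0.1, 9 with median-of-ratios scaling, 6 with equal totals outside the globin genes and 1 with the transcript of highest RPKM. The 9 differences with an unadjusted p under 0.05 kept their direction in all 189 alternative values, and 22 of these crossed the threshold. Of all 54 differences, 23 changed sign at least once. The cause was not tested. Only 3 spleens per group limit the precision, and Fos, Atf3 and Fosb rest on few reads.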
